A study of Homo sapiens with 6 samples.

Results

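The genes described here are 10 markers used to sort and classify human breast epithelial cells, measured on Clariom D arrays of the parental line MCF10.AT1 and the fluvastatin-resistant line MCF10.AT1-R. They comprise 8 genes of cell surface proteins (CD24, EPCAM, MUC1, CD44, NT5E, PROM1, THY1 and MME) and 2 genes of aldehyde dehydrogenases (ALDH1A1 and ALDH1A3), of 81496 gene symbols on the array. The 10 genes carry 13 probe sets, each a group of short oligonucleotide probes summarised into 1 value, and where a gene had several, its main probe set was chosen by the highest mean level over the 5 arrays compared. The genes were also put together with earlier results of these arrays known, so their values are a description of these lines and not independent support for a pattern.

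MCF10.AT1 is a preneoplastic line of the MCF10A series, derived from non-malignant breast epithelium and carrying an activated HRAS, and is labelled sensitive to fluvastatin. MCF10.AT1-R was selected from it by exposure to fluvastatin, an inhibitor of HMG-CoA reductase, in doses raised from 1 to 20 µM. The labels repeat this treatment text for the samples of both lines. It is a single resistant line whose number of founding clones, and whether the drug was present at harvest, are not given in the sources used here, so resistance and any other history of that line cannot be told apart. The labels give 3 biological replicates per line. The study removed array A03 of MCF10.AT1 as an outlier, and the lines were therefore compared over A01 and A02 against B02, B03 and B04, with A03 shown apart. All arrays of a line share 1 letter in their array names, so the line and the array position that the letter may stand for cannot be told apart. The Pearson correlation of A03 with the other arrays over all transcripts was 0.779 to 0.795, against 0.967 to 0.977 among the 5 arrays kept.

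The breast epithelium has a luminal layer, which lines the ducts, and a basal or myoepithelial layer beneath it. EPCAM, MUC1 and CD24 are surface proteins typical of luminal cells, whereas MME, THY1 and CD44 are used to mark basal, myoepithelial or stem-like cells. Cells with high CD44 and low CD24 on the surface are enriched for tumour-initiating ability in several breast cancers, and high aldehyde dehydrogenase activity and PROM1 have been used to the same end. In bulk RNA, a higher share of cells of 1 type and more RNA per cell cannot be told apart.

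The log2 expression values of 6 of the 10 genes were higher on every MCF10.AT1-R array than on both MCF10.AT1 arrays, namely CD24, MUC1, ALDH1A3, EPCAM, CD44 and NT5E. None of the 10 was lower on every array of the resistant line. These 6 were also the genes whose levels lay above the 95th percentile of the negative control probe sets on all 5 arrays, whereas PROM1, THY1, MME and ALDH1A1 were at or near that background in both lines. An order with all MCF10.AT1-R arrays above all MCF10.AT1 arrays was found for 12.8% of the main probe sets of all gene symbols. The reverse order was found for 9720 of the 81496 symbols. Only 30083 of these symbols had a mean above background in at least 1 line, and the share among those was not determined. In limma over the 51457 probe sets left after filtering, 9 of the 10 genes were tested. CD24 and MUC1 rose at a false discovery rate (FDR) of 5%. Over all tested probe sets 0.758% were higher in MCF10.AT1-R, and by main probe set 360 of the 35766 gene symbols tested. The median log2 change of the 10 genes was 0.58, against 0.005 over all gene symbols.

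**Figure D1:**
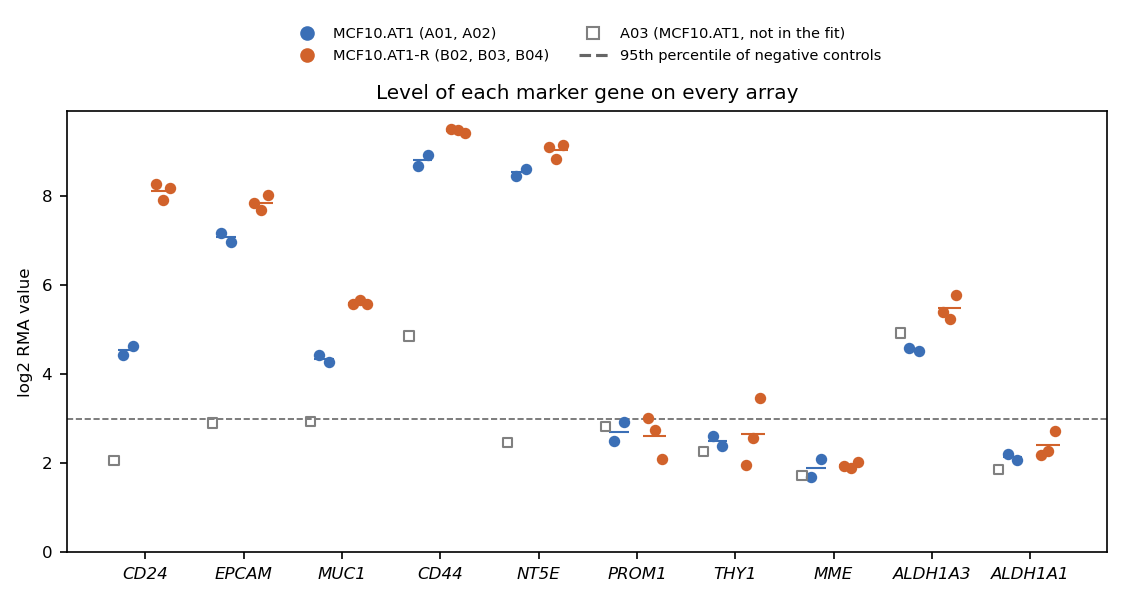
Log2 RMA value of the main probe set of each of the 10 marker genes on every array. Each point is 1 array, short lines are the mean of the arrays compared in each line (n = 2 for MCF10.AT1 and n = 3 for MCF10.AT1-R), open squares are A03, and the dashed line is the 95th percentile of the negative control probe sets (2.99). The MCF10.AT1-R points of CD24 lie between 7.92 and 8.28, far above the MCF10.AT1 points at 4.43 and 4.64.

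CD24, a small sialoglycoprotein anchored to the membrane by a lipid and a ligand of P-selectin and Siglec-10, had the largest change of the 10 genes. Its log2 value (probe set TC0600012747.hg.1) was 4.43 on A01 and 4.64 on A02, and 8.28, 7.92 and 8.17 on B02, B03 and B04. All 3 MCF10.AT1-R arrays lay at least 3.28 above the higher MCF10.AT1 array, a distance far larger than the SD of the parental (0.15, n = 2) and of the resistant arrays (0.18, n = 3). The log2 change was 3.59 (standard error 0.31, 95% interval 2.97 to 4.20, Benjamini-Hochberg adjusted p = 5.47e-27 from limma), a fold of 12.0. This p, like the others from this fit, rests on a common SD of 0.34 for every tested probe set. The adjusted p from limma was 0.00155 with the low-expression filter alone and 0.000663 with no filter. With values raised to the negative controls' 95th percentile it was 0.0344. The smallest exact two-sided permutation p that these arrays allow is 0.1. CD24 ranked 11 among the rises of the 35766 gene symbols tested. With A03 added to the MCF10.AT1 arrays the log2 change was 4.41 and the call was lost (adjusted p = 0.12 from limma). A03 is the array on which CD24 read 2.06, below the negative controls' 95th percentile.

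CD24 has near-identical copies in the genome, and array probes can be shared among them. The values of the copies with a probe set of their own were looked up after those of CD24 had been seen. CD24P4, a processed pseudogene, read 4.43 and 4.20 in MCF10.AT1 and 6.99, 6.72 and 6.97 in MCF10.AT1-R. Its probe set, TC0Y00007145.hg.1, is named for chromosome Y. The value of this probe set also rose, by a log2 change of 2.58 (standard error 0.31, adjusted p = 1.51e-13 from limma). The difference between CD24 and CD24P4 on the same array averaged 0.22 ± 0.31 on the parental arrays (SD, n = 2) and 1.23 ± 0.05 on the resistant ones (SD, n = 3), so both probe sets rose, and by unequal amounts. The copy CD24L2 changed by 0.07 and CD24P2 by 0.01, and neither was among the probe sets tested. CD24P2 lay below the controls on all 5 arrays. Whether these cells carry or transcribe CD24P4 was not tested. How much of the CD24 and CD24P4 signal comes from probes that match both genes was not tested, and the value of CD24 is less certain for it.

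**Figure D2:**
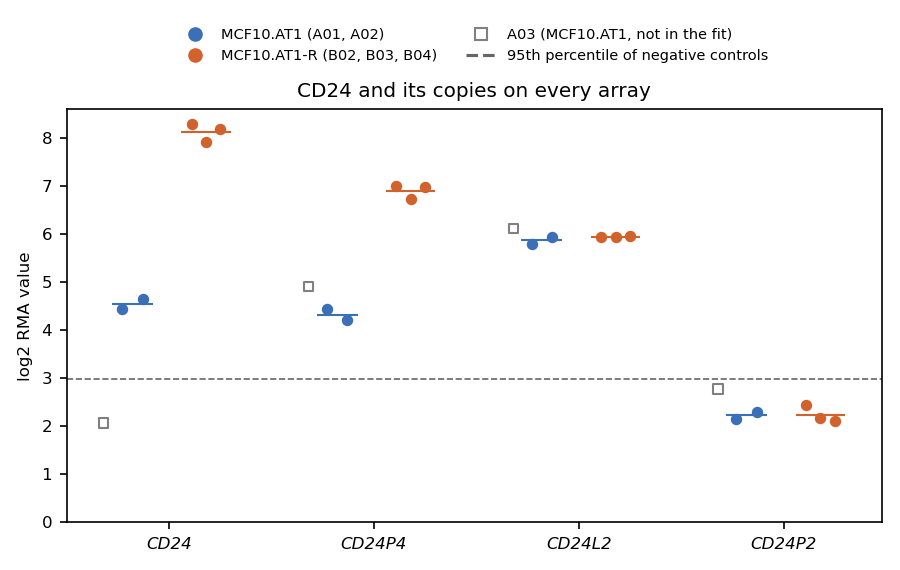
Log2 RMA value of CD24 and of 3 copies of it on every array, with the same symbols as in the plot of the marker genes. CD24 and CD24P4 are higher on every MCF10.AT1-R array than on every MCF10.AT1 array, while the arrays of the lines overlap for CD24L2 and CD24P2.

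EPCAM, a cell adhesion protein of simple epithelia, read 7.18 and 6.97 in MCF10.AT1 and 7.84, 7.70 and 8.01 in MCF10.AT1-R. No resistant array overlapped a parental one, and the log2 change was 0.78 (standard error 0.31, 95% interval 0.17 to 1.39). It missed FDR 5% (adjusted p = 0.341 from limma), but passed when the variance was allowed to follow the expression level (adjusted p = 5.84e-05 with limma's trend option). Without the filter on invariant probe sets the adjusted p with the trend option was 0.00589. Its residual SD was 0.16, less than the common SD of 0.34 that limma used for every tested probe set after the filter on invariant probe sets. EPCAM also missed with the low-expression filter alone (adjusted p = 0.292 from limma) and with no filter (0.447).

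MUC1, a transmembrane mucin of the apical surface of luminal cells, was the other gene to rise. It read 4.42 and 4.28 in MCF10.AT1 and 5.57, 5.67 and 5.57 in MCF10.AT1-R (TC0100018499.hg.1). The 3 resistant arrays lay close together and 1.15 or more above the parental arrays. The log2 change was 1.26 (standard error 0.31, 95% interval 0.64 to 1.87, adjusted p = 0.00789 from limma), a fold of 2.39. MUC1 no longer passed without A01 (adjusted p = 0.129), without A02 (0.301), with the low-expression filter alone (0.0504), without any filter (0.0673) or with A03 added (0.777), although its direction was the same in each.

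The promoters of these genes are shown because CD24 and MUC1 were the genes called. Both sequences are the 250 bases before the first transcription start that RefSeq lists for the gene (GRCh38.p14, minus strand), written 5′ to 3′, with capitals at TATAAA and at CACCTG on either strand. CACCTG is the E-box bound by the ZEB and SNAI repressors of epithelial genes, and TATAAA the core of the TATA box. A window was listed for 8 of the 10 genes.
CD24, chr6:106975628-106975877: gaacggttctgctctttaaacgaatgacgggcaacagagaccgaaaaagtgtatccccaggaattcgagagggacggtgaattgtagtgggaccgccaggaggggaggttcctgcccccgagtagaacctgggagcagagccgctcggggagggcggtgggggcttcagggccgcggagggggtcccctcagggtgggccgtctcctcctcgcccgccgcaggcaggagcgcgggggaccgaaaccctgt
MUC1, chr1:155192916-155193165: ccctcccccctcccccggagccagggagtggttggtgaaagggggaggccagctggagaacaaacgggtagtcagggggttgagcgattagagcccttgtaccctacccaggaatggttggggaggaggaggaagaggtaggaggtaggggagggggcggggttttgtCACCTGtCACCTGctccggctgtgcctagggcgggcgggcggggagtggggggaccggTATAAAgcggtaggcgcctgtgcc

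The MUC1 window held 2 copies of CACCTG next to each other and 1 TATAAA, and the CD24 window held neither. Of 35116 promoter windows of the same length, 17.5% held CACCTG and 10.7% held TATAAA on either strand. The GC box GGGCGG was found 4 times in the MUC1 window and 1 time in the CD24 window, and in 42.6% of all windows. No AP-1 site TGANTCA was found in either window, against 6.57% of all windows. CD24 has 2 further listed starts, and 1 of their windows held CACCTG.

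CD44, the receptor for hyaluronan, read 8.67 and 8.93 in MCF10.AT1 and 9.51, 9.48 and 9.42 in MCF10.AT1-R on its main probe set. Every resistant array was higher, by a mean log2 change of 0.67 (standard error 0.31, 95% interval 0.06 to 1.28, adjusted p = 0.511 from limma). It passed only with limma's trend option (adjusted p = 4.35e-09, or 0.00134 without the filter on invariant probe sets). The other CD44 probe set, TC1100007274.hg.1, changed by 0.60, with A01 and A02 at 2.28 and 2.72 and only B02 above the negative controls, at 3.64.

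CD24 and CD44 were therefore higher on the same arrays, and unequally so. On a single array the log2 value of CD24 minus that of CD44 was -4.24 on A01 and -4.29 on A02, and -1.24, -1.56 and -1.25 on B02, B03 and B04. The difference shifted toward CD24 by 2.92 on the log2 scale, with an SD of 0.03 over the parental and 0.18 over the resistant arrays. The sign of the difference carries no meaning, because the probe sets of these genes are not on 1 scale. The shift does not show which proteins were on the cell surface.

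NT5E (CD73), the ectoenzyme that turns extracellular AMP into adenosine, read 8.45 and 8.62 in MCF10.AT1 and 9.10, 8.83 and 9.14 in MCF10.AT1-R. The gap between the lines was 0.21, and the log2 change was 0.49 (95% interval -0.12 to 1.10, adjusted p = 0.748 from limma). It passed only with limma's trend option (adjusted p = 0.000755, or 0.0368 without the filter on invariant probe sets). Of the 6 genes above background, NT5E had the smallest change.

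PROM1 (CD133), a protein of membrane protrusions, read 2.49 and 2.93 in MCF10.AT1 and 3.01, 2.75 and 2.09 in MCF10.AT1-R. The arrays overlapped and the change was -0.09 (95% interval -0.70 to 0.52, adjusted p = 0.946 from limma). THY1 (CD90), a lipid-anchored glycoprotein of basal and mesenchymal cells, read 2.61 and 2.39 in MCF10.AT1 and 1.96, 2.57 and 3.47 in MCF10.AT1-R. Its change of 0.17 rested on B04, without which it was -0.23. MME (CD10), a peptidase of myoepithelial cells, read 1.68 to 2.09 in MCF10.AT1 and 1.90 to 2.03 in MCF10.AT1-R and did not vary enough to be tested. Its change of 0.07 comes from limma without a filter (95% interval -0.39 to 0.53). For these genes a change below the level of the negative controls was not detectable.

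The aldehyde dehydrogenases ALDH1A1 and ALDH1A3 oxidise retinaldehyde to retinoic acid and contribute to the enzyme activity by which stem-like breast cells are sorted. ALDH1A3 was the one above background. It read 4.58 and 4.53 in MCF10.AT1 and 5.40, 5.24 and 5.78 in MCF10.AT1-R on its main probe set (TC1500010800.hg.1). The log2 change was 0.92 (standard error 0.31, 95% interval 0.31 to 1.53, adjusted p = 0.154 from limma). ALDH1A3 passed only with limma's trend option (adjusted p = 0.0188, or 0.0357 without the filter on invariant probe sets). Its other probe set, TC1500010799.hg.1, stayed between 1.99 and 2.19 on the 5 arrays, below the controls. ALDH1A1 read 2.22 and 2.07 in MCF10.AT1 and 2.19, 2.28 and 2.73 in MCF10.AT1-R, below the controls on all 5 arrays. The change of ALDH1A1 was 0.26 on this probe set and -0.39 on the other (adjusted p = 0.847 and 0.814 from limma).

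**Figure D3:**
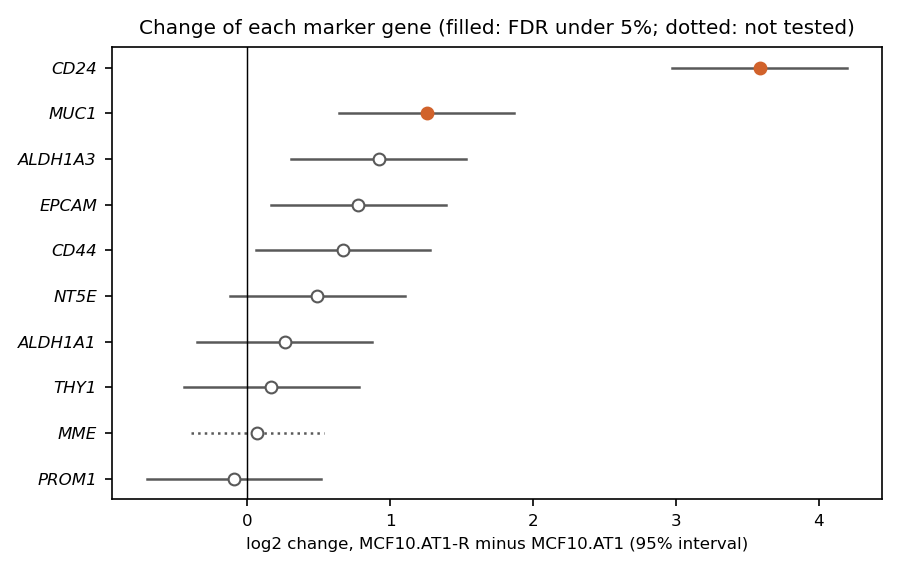
Log2 change of the main probe set of each of the 10 marker genes, MCF10.AT1-R (n = 3) minus MCF10.AT1 (n = 2), with the 95% interval from limma. CD24 at 3.59 and MUC1 at 1.26 are filled, for FDR under 5%, and MME, which the filter removed, is dotted and comes from the fit without a filter.

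Without A03 set apart, the order of the arrays was the same. The 6 genes were higher on every MCF10.AT1-R array than on all 3 MCF10.AT1 arrays, but A03 read low for most of these genes. CD44 was 4.86 on A03, NT5E 2.47, EPCAM 2.90 and MUC1 2.93. ALDH1A3 was an exception among the 6, at 4.92 on A03, above A01 and A02. With A03 in the fit none of the 10 genes passed FDR 5%, although the log2 change was 1.73 for MUC1, 1.98 for CD44, 2.17 for EPCAM and 2.51 for NT5E, each larger than without A03.

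The gene symbol with the profile most like CD24 was SCEL, which encodes sciellin, a precursor of the cornified envelope of squamous epithelia. After each gene was centred on its own mean over the 5 arrays, the root mean square distance between SCEL and CD24 was 0.0948 on the log2 scale. SCEL read 3.73 and 3.91 in MCF10.AT1 and 7.47, 7.20 and 7.22 in MCF10.AT1-R. The next were the keratin 17 pseudogenes KRT17P1 (distance 0.163) and KRT17P2 (0.194), among 35765 other symbols. With 5 arrays in 2 groups, such a distance mostly measures how alike the changes are in size, which were 3.47 for SCEL and 3.59 for CD24.

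The markers of the luminal and basal layers were read from lists of 12 genes each. Of the luminal markers 7 were tested, of which KRT19 rose by 2.91 (adjusted p = 1.41e-17 from limma) and KRT8 by 1.11 (adjusted p = 0.0358), and none fell. KRT18, the partner of KRT8 in simple epithelia, changed by 0.85 (adjusted p = 0.243). KRT7, another luminal keratin, changed by 0.31, and the estrogen receptor gene ESR1, near background, by -0.43, with overlapping arrays. Of the basal markers 11 were tested, and KRT17 rose by 4.08, KRT14 by 2.37, TP63 by 1.74 and KRT5 by 1.71, all 4 past FDR 5%. TP63 is a regulator of the basal and squamous state. The basal adhesion genes ITGB4 (integrin beta 4) and CDH3 (P-cadherin) each changed by 0.93 (adjusted p = 0.14 and 0.148 from limma), and MYLK, a kinase of contractile cells, by -0.62. KRT14 and KRT17 have pseudogenes and near relatives with which probes may be shared. The median change was 0.21 for the luminal list and 0.70 for the basal list, against 0.005 over all gene symbols. The genes of both lists past FDR 5%, which are keratins and TP63, thus rose on the same arrays as CD24 and MUC1. Other members of the lists changed less. Among luminal genes FOXA1 changed by -0.18 and GATA3, which was not tested, by 0.18. Among basal genes CNN1 changed by -0.10 and ACTA2 by 0.47, and neither passed FDR 5%.

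Of the 12 other stem or progenitor markers, 11 had a symbol on the array, 8 were tested and none passed FDR 5%. The median change of the list was -0.07. The chemokine receptor gene CXCR4 was within the controls on both MCF10.AT1 arrays and above them on all 3 MCF10.AT1-R arrays, and it changed by 0.16 with values raised to the controls. SOX9, a regulator of mammary progenitors, changed by 0.36 and PROCR by -0.43, with overlapping arrays in both.

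**Figure D4:**
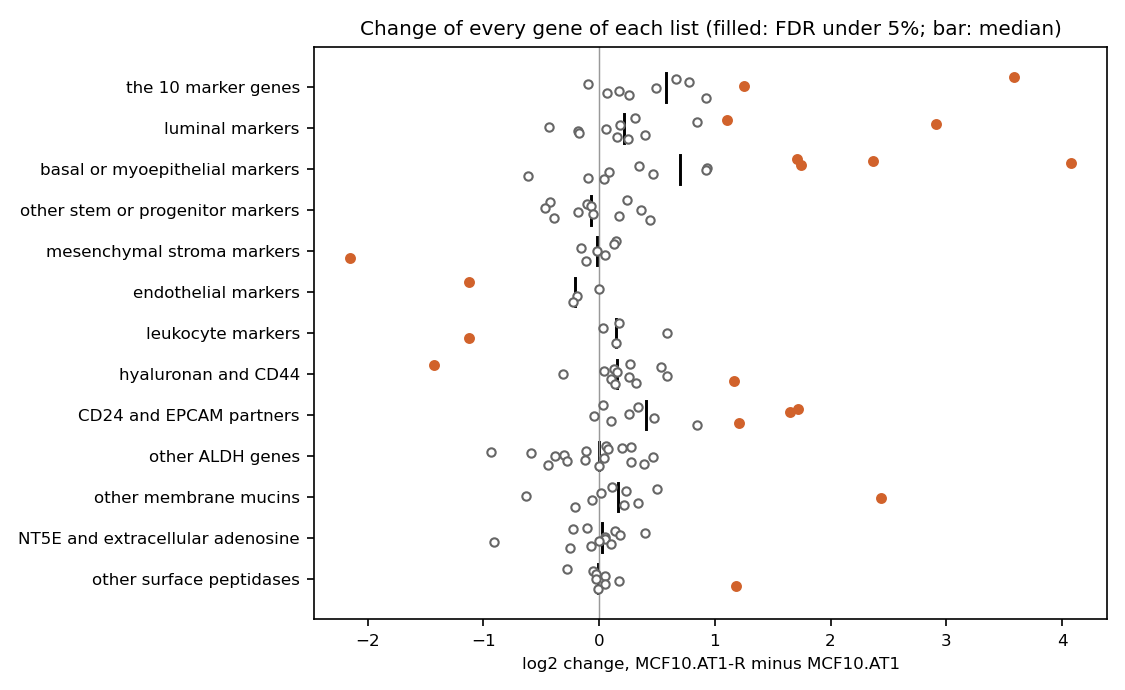
Log2 change (MCF10.AT1-R minus MCF10.AT1) of the main probe set of every gene of each list, with filled points for FDR under 5% and a bar at the median of the list. The filled points of the luminal, basal, and CD24 and EPCAM partner lists lie to the right, between 1.11 and 4.08, and those of the stroma, endothelial and leukocyte lists to the left, between -2.15 and -1.12.

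Genes whose products act with CD24 or EPCAM were read as a list of 10, of which 8 were tested, 3 rose and none fell. CLDN7, a claudin that binds EPCAM, read 7.32 and 7.38 in MCF10.AT1 and 9.05, 8.97 and 8.98 in MCF10.AT1-R, and rose by 1.65 (adjusted p = 3.56e-05 from limma). Also past FDR 5% was SPINT1, a surface inhibitor of serine proteases that cleave EPCAM, which rose by 1.21 (adjusted p = 0.0127 from limma). Its relative SPINT2 changed by 0.85 (adjusted p = 0.243). The sheddase gene ADAM10 changed by 0.26. The median change of the list was 0.41.

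Among 13 genes of hyaluronan and CD44, 11 were tested and 1 rose and 1 fell. Over all tested probe sets 0.447% were lower, and by main probe set 182 of the 35766 gene symbols tested. ESRP1, the epithelial splicing factor that sets the choice between CD44 isoforms, rose by 1.17 (7.51 to 8.68, adjusted p = 0.0196 from limma). HAS2, a hyaluronan synthase, read 3.63 and 2.98 in MCF10.AT1 and 1.82, 1.62 and 2.21 in MCF10.AT1-R, a fitted fall of 1.42 (change -1.42, adjusted p = 0.000966 from limma). Since 1 MCF10.AT1 array and all MCF10.AT1-R arrays of HAS2 lay within the negative controls, its fall was at least 0.32 on the log2 scale when values under 2.99 were raised to it (change -0.32). EZR, which links CD44 to actin, changed by 0.59, and HAS3, another hyaluronan synthase, by 0.54. Probe sets that cover a whole gene, as used here, do not tell CD44 isoforms apart.

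MUC16 was the 1 of the 10 other membrane mucins to pass. It read 2.85 and 3.38 in MCF10.AT1 and 5.75, 5.32 and 5.57 in MCF10.AT1-R, and its fitted change was 2.43 (adjusted p = 5.19e-12 from limma). With A01 within the controls, its rise was at least 2.36. MUC12 and MUC21, close to the controls, changed by 0.23 and 0.22. Of 9 other surface peptidases, 4 were tested and FAP rose by 1.18 (7.97 to 9.16, adjusted p = 0.0175 from limma), while ANPEP (CD13), which was not tested, changed by -0.28.

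None of 17 other aldehyde dehydrogenase genes passed FDR 5%, with 14 tested and a median change of -0.005. The largest change was that of ALDH3A1, an enzyme that detoxifies aldehydes, at -0.94 (5.91 to 4.98, adjusted p = 0.139 from limma). ALDH3A2, which oxidises fatty aldehydes, changed by -0.58 and the mitochondrial ALDH4A1 by 0.46. In the adenosine pathway around NT5E, 5 of 12 genes were tested and none passed. The adenosine receptor ADORA1 changed by -0.90 (adjusted p = 0.171) and the ectonucleotidase gene ENTPD2 by -0.23.

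Markers of cells other than epithelium were examined as well, since THY1 and MME also mark stroma. Of the 7 mesenchymal, 4 endothelial and 5 leukocyte markers, 2, 2 and 4 were tested, 1 of each list fell and none rose. Over all tested probe sets 0.447% were lower, and by main probe set 182 of the 35766 gene symbols tested. FAP (fibroblast activation protein), read among the surface peptidases and in none of these lists, rose by 1.18. DCN (decorin) read 5.31 and 5.32 in MCF10.AT1 and 3.49, 2.76 and 3.25 in MCF10.AT1-R, a change of -2.15 (adjusted p = 3.88e-09 from limma). PECAM1 changed by -1.12 and CD14 by -1.12 (adjusted p = 0.0307 and 0.0298 from limma). Neither call held with the low-expression filter alone, with no filter or with A03 added, CD14 was lost on leaving out any 1 of the 5 arrays, and PECAM1 on leaving out any but B04. The median change was -0.01 for the mesenchymal, -0.21 for the endothelial and 0.14 for the leukocyte list. The summed log2 level of the mesenchymal list was 30.2 to 30.7 in MCF10.AT1 and 27.6 to 28.7 in MCF10.AT1-R, that of the endothelial list 13.4 to 13.8 and 11.6 to 12.7, and that of the leukocyte list 16.9 to 18.7 and 17.3 to 17.9. DCN and PECAM1 make up most of the lower sums of the first pair of lists. The defining markers LUM, KDR and PTPRC read below the controls in both lines, whereas the mean of COL1A1 was 7.03 in the parental and 7.18 in the resistant line. Any part of these genes in the changes of the 10 markers was not tested.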

How the data were processed

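Total RNA of MCF10.AT1 and MCF10.AT1-R (3 arrays each) was hybridised to Clariom D arrays. The authors made and deposited log2 values by RMA with affy and oligo (versions not given in the sources used here), 1 per probe set and array, unfiltered. The array names carry a letter for the line, read from the study's removal of A3 and its plots of 2 MCF10.AT1 and 3 MCF10.AT1-R arrays. The genome build of the values is not given in the sources used here.

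The 2995 control probe sets were left out. Probe sets with a mean over the 5 arrays above the median (1.88) and an SD above the lowest 25% (0.176) entered limma 3.58.1 (lmFit, eBayes; R 4.3.3) for a two-sided comparison (Benjamini-Hochberg, FDR 5%). The same steps were run on simulated data, with an outcome not reported here. Those data had independent noise and no array effects, so they cannot vouch for the calls. Background was the 95th percentile of 612 negative controls, averaged over the 5 arrays (2.99). Whether a single array lay above the controls was judged by the percentile of that array (2.88 to 3.14). Precision is limited by the number of arrays. Of the list genes, 1 symbol (BMI1) was not matched. The text names all 10 genes, every list gene past FDR 5% and up to 3 more per list with the largest changes above background in a line, and the 3 symbols most like CD24. The CD24 copies, FOXA1, GATA3, CNN1, ACTA2, LUM, KDR and PTPRC were named after their values were seen. Some list genes that this rule names are not reported here. The 10 genes, the lists and the tests were chosen with earlier results of these data known. The alternatives changed the arrays, filters, variance model, normalization, probe set, background or threshold.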

Additional observations from a re-analysis of the deposited data

How the results depend on the processing

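The 620 probe sets past FDR 5% became 26 with all 6 arrays, 182 with the low-expression filter alone, 177 with no filter, 1377 with the trend option and 1086 with the low-expression filter and the trend option together, an alternative chosen after seeing the data. Leaving out each array gave 271 to 595. Of the 10 marker genes 2 passed, against 0 with all 6 arrays, 1 with the low-expression filter alone or no filter (CD24) and 6 with the trend option, with or without the filter on invariant probe sets (CD24, CD44, EPCAM, MUC1, NT5E and ALDH1A3). Leaving out each array gave 1 to 2, and it was 1 without A01 and without A02. CD24 passed in 12 of 13 alternatives, and MUC1 in 8 of 13. CD44, EPCAM, NT5E and ALDH1A3 each passed in 2 of 13, both with the trend option. Of the other listed genes 16 passed, against 1 with all 6 arrays, 9 with the low-expression filter alone or no filter, 7 with values raised to the negative controls, 23 with the trend option, 24 with the low-expression filter and the trend option, and 9 to 14 with each array left out. KRT8, PECAM1, CD14, HAS2, ESRP1, SPINT1 and FAP did not pass with the low-expression filter alone, with no filter or without A01. Directions turned only for genes at background. Leaving out each array gave changes of -0.13 to 0.28 for MME, -0.31 to 0.17 for PROM1 and -0.23 to 0.52 for THY1. PROM1 was 0.0062 with values raised to the negative controls, and ALDH1A1 was -0.0663 with its probe sets averaged. The causes were not tested. No paired analysis was possible because the array columns do not carry the replicate numbers of the labels.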
